A study of Mus musculus with 35 samples.

Results

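The 3 *Tet* genes and *Tdg* encode the enzymes that remove DNA methylation actively. They were followed here in mouse embryonic stem cells (ESCs), self-renewing cells derived from the early embryo, from which *Dnmt1* had been deleted, and in ESCs that lacked *Dicer*. The members are the 4 rows of the expression table that bear the symbols *Tet1*, *Tet2*, *Tet3* and *Tdg*, of 26127 rows in all. Sequencing of total RNA, after removal of ribosomal RNA, covered 17 WT libraries (labelled control) and 17 *Dnmt1* KO libraries at days 0, 1, 3, 6, 9, 11, 17 and 25, with 2 libraries for each genotype and day and 3 at day 1, and from 1 *Dicer* KO library. The labels give E14 as the background strain, whereas the methods give C57BL/6 for the line, so its background is uncertain. They describe a line in which both *Dnmt1* alleles are flanked by loxP sites, with Cre recombinase induced by tamoxifen, in medium with serum and LIF and with or without feeder cells. The *Dicer* KO line was made by genome editing from single-cell colonies and carries the same loxP sites at *Dnmt1*; the labels give no day for it. The labels do not say whether libraries of one group came from separate cultures, so p-values measure the spread between these libraries, which may be technical.

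DNMT1 copies methyl groups at CG dinucleotides onto the new strand at each round of replication, and without it methylation is diluted as cells divide. The TET proteins work in the opposite direction: they are iron- and 2-oxoglutarate-dependent dioxygenases that oxidise methylated cytosine in steps. TDG, a DNA glycosylase, cuts out the most oxidised forms, and base excision repair (BER) then fills the gap with an unmodified cytosine. *Tet1* and *Tet2* are known as the *Tet* genes of ESCs, and *Tet3* as the one of the oocyte and zygote. The comparisons ask whether RNA of this machinery changed once maintenance methylation was gone, and how it stood in cells without *Dicer*, whose product makes small RNAs from double-stranded precursors.

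On NCBIM37, the build of the files, *Tet1* (ENSMUSG00000047146.8) lies on the minus strand of chromosome 10, from 62267318 to 62361866. *Tet2* (ENSMUSG00000040943.7) lies on the minus strand of chromosome 3, from 133126643 to 133207354. *Tet3* (ENSMUSG00000034832.8) lies on the minus strand of chromosome 6, from 83312367 to 83391672, and *Tdg* (ENSMUSG00000034674.11) on the plus strand of chromosome 10, from 82092573 to 82113544. All 4 are annotated as protein coding, with summed exon lengths of 14710, 9203, 11086 and 5374 bases.

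CG is the dinucleotide that DNMT1 maintains and TET proteins act on. The 250 bases before each RefSeq transcription start are therefore shown with every CG in capitals; no methylation was measured in these files.
Tet1: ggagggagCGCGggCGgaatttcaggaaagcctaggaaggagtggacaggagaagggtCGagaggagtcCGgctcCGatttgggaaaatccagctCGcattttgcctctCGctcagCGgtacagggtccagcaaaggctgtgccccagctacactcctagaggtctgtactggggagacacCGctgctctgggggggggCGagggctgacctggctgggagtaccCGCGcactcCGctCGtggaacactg
Tet2: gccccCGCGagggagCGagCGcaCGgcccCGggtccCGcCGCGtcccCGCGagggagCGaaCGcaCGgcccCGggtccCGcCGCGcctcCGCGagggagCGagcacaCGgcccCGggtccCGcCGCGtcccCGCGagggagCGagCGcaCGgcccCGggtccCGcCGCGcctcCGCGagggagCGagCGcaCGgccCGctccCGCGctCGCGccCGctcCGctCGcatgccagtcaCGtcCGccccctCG
Tet3: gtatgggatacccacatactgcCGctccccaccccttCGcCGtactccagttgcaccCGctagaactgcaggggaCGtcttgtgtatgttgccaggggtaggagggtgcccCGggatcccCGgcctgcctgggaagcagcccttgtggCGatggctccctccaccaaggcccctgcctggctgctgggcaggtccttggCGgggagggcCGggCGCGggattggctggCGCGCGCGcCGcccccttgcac
Tdg: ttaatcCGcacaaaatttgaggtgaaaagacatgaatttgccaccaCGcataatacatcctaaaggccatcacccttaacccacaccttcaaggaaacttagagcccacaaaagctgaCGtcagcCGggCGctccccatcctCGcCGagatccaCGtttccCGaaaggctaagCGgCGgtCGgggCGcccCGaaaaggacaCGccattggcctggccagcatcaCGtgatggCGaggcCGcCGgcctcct
The windows come from RefSeq on GRCm38.p6 (chr10:62887325-62887574, chr3:133544391-133544640, chr6:83441679-83441928, all minus strand, and chr10:82629588-82629837, plus strand), and each was found exactly 1 time in NCBIM37. The *Tet2* window held 51 CG, and 0.07% of 32851 RefSeq windows of that length held at least as many. The *Tdg* window held 19 (19.73% of windows at least as many), the *Tet3* window 17 (23.52%) and the *Tet1* window 15 (27.31%), against a median of 6. The RefSeq start of *Tet1* lies 11794 bases inside the gene as annotated on NCBIM37, so its window may not be the start that the older annotation describes. On either strand, the GC box GGGCGG, in 32.74% of windows, was found before *Tet1*, *Tet2* and *Tet3*, and CCAAT (33.85%) before *Tet3* and *Tdg*. *Tdg* alone among the 4 had the cAMP response element TGACGTCA (1.55% of windows) and the E-box CACGTG (6.02%). The GC box, TGACGTCA and CACGTG each contain a CG and so overlap the capitals; a match describes letters and not a bound factor.

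Depth ranged from 24.3 to 72.1 mega-reads per library, with 5.10 to 17.5 in gene exons. The share of reads in exons split them, at 35%, into 20 low-share libraries (20.2% to 22.0%), which hold day 0 to day 9 apart from the third day 1 pair, and 15 high-share libraries (44.1% to 48.8%), which hold that pair, the days from 11 on and *Dicer* KO. Levels cannot be compared between these sets, but KO and WT of one day are spread over them alike. Only day 1 spans both sets, with replicates 1 and 2 of each genotype low-share and replicate 3 high-share. *Dnmt1* was lower in KO at days 1, 3, 9, 11, 17 and 25, by between 1.97 and 2.95 on the log2 scale. At day 6 it went against the labels, with 3.31 RPKM in the libraries labelled WT and 20.3 in those labelled KO. Day 6 is therefore given as labelled, and means are given with and without it. Were these labels exchanged, each day 6 difference would have the opposite sign, and the means that include day 6 would shift. Replicate 2 of KO at day 11 stood apart from its partner: 4.88% of 11615 tested genes differed by more than 1 on the log2 scale, against at most 0.887% in the other 15 pairs of one group and set. From day 11 to day 25, 7895 of the tested genes were called in WT and 6161 in KO. Mean *Dnmt1* in WT was 33.2 RPKM at day 25, against 14.07 at day 11 and 16.8 at day 17. All 10 ESC markers were detected in every group (summed level of 521 to 729 RPKM in low-share and 763.5 to 1628 RPKM in high-share libraries). *Dppa5a* was the largest part of the sum, with 715.3 of 1129 RPKM in *Dicer* KO. *Lin28a* was near absent from *Dicer* KO, at 0.4426 RPKM against 36.12 to 78.29 in the libraries of days 11 to 25. *Utf1* (7.144 RPKM) and *Pou5f1* (127.9 RPKM) were also below all of those libraries. *Tcfcp2l1* was above all of them, and the other markers lay within their range.

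*Tet1* was the most abundant member in each of the 35 libraries and *Tet3* the least, on the RPKM scale (reads divided by exon length in kilobases and by library size in mega-reads, which allows levels of different genes to be compared). In low-share libraries *Tet1* ranged from 6.47 to 10.5 RPKM, *Tet2* from 3.39 to 5.83, *Tdg* from 4.04 to 5.05 and *Tet3* from 0.145 to 0.287. In high-share libraries *Tet1* ranged from 20.75 to 57.3 RPKM, *Tet2* from 6.96 to 23.4, *Tdg* from 7.79 to 13.55 and *Tet3* from 0.230 to 1.38. The reads behind these values were between 2743 and 29235 for *Tet1*, 933 and 8152 for *Tet2*, 579 and 2527 for *Tdg*, and 44 and 459 for *Tet3*, whose level is the least precise. *Tet2* came before *Tdg* in 26 libraries and after it in 9. Those neighbours overlapped in the KO groups of days 6 and 17, so their order there did not exceed the spread between replicates, and *Tet1* and *Tet3* never overlapped a neighbour in any group with both day 1 sets kept apart. The order of *Tet2* and *Tdg* is uncertain in all groups, since reads that match copies of *Tdg* equally well, described below, would have been discarded.

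**Figure D1:**
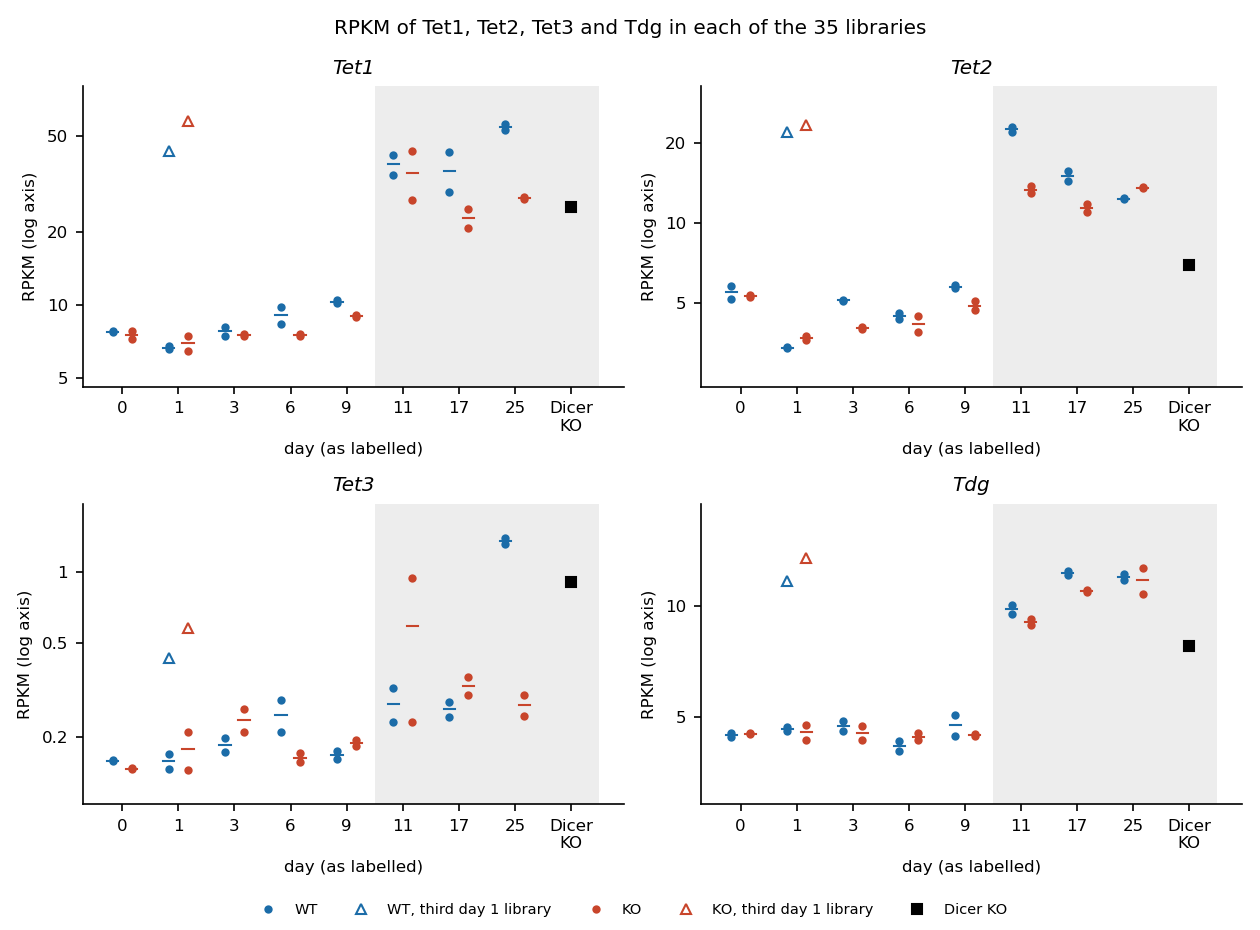
RPKM of the 4 members (1 panel each, log axis) in each library by labelled day; points are libraries, short lines the mean of replicates 1 and 2, triangles the third day 1 libraries, the square *Dicer* KO, and grey the days of high gene-read share. *Tet1* and *Tet3* of WT at day 25 sit above all other libraries of days 11 to 25, and *Tet2* of WT falls from day 11 to day 25.

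*Tet1*, which carries a CXXC domain that binds CG-rich DNA, was lower in *Dnmt1* KO than in WT at the late days. At day 25 the WT libraries had 55.95 and 52.65 RPKM and the KO libraries 27.9 and 27.4. The WT level was 1.97-fold that of KO, and the groups did not overlap (log2 difference -0.97 on the log2(RPKM + 0.1) scale, SE 0.164, limma adjusted p 2.64e-05). In this comparison 25.9% of all tested genes were called lower, so *Tet1* was 1 of many. At day 17 WT had 29.2 and 42.7 RPKM and KO 25.03 and 20.75. Again the groups did not overlap, although the WT libraries stood far apart (log2 difference -0.63, SE 0.164, limma adjusted p 0.00383; 11.4% of genes called lower). The day 17 call was lost without replicate 2 of WT (-0.36, adjusted p 0.125) and without replicate 2 of KO (-0.49, adjusted p 0.0653), and in a fit of high-share libraries alone (adjusted p 0.0630).

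Before day 17 no difference in *Tet1* passed the test. At day 11 WT had 34.5 and 41.7 RPKM and KO 27.1 and 43.3, and the KO libraries spanned both WT values. Without replicate 2 of KO, the library that stood apart, the day 11 difference was -0.49 (adjusted p 0.0224), and without replicate 1 it was 0.19. At day 9 WT had 10.2 and 10.5 RPKM and KO 8.94 and 9.13, which do not overlap, but the difference of -0.20 did not pass (95% interval -0.54 to 0.14, adjusted p 0.408). It passed when only the groups of day 9 were fitted (adjusted p 0.0216) and when only low-share libraries were fitted (adjusted p 0.0442). Days 0 and 3 gave differences of -0.04 and -0.05 with overlapping groups, and at day 6 the libraries labelled KO, with 7.502 and 7.63 RPKM, lay below those labelled WT, with 9.88 and 8.395 (-0.26, adjusted p 0.249; 27.1% of genes called).

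Averaged over days 3 to 25, the log2 difference of *Tet1* was -0.38, with an SE of 0.0670 (limma adjusted p 8.51e-05), and it was -0.40 without day 6 (adjusted p 7.99e-05). In these means 16.6% and 20.4% of tested genes were called lower. The difference at day 25 minus that at day 9 was -0.77 (SE 0.232, adjusted p 0.00898; 48.2% of genes called in this contrast, 21.5% lower). Without the term for the third day 1 pair, no *Tet1* call remained (limma adjusted p 0.402 at day 25). The day 25 difference stayed at -0.97, while its SE rose from 0.164 to 0.734. In that fit the offset of the third day 1 libraries, described below, enters the spread shared by all days.

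*Tet2*, which lacks a CXXC domain of its own, took another course, being lower in KO at days 3, 9, 11 and 17 but not at day 25. At day 3 WT had 5.13 and 5.09 RPKM and KO 3.995 and 4.07 (log2 difference -0.33, SE 0.0687, limma adjusted p 0.00240; 3.81% of tested genes called lower). At day 9 WT had 5.68 and 5.83 RPKM and KO 4.69 and 5.07 (-0.23, adjusted p 0.0138; 10.5% of genes called lower). The replicates were tight and the groups apart on both days, yet the day 9 call was lost without replicate 1 of KO (-0.18, adjusted p 0.162) or replicate 2 of WT (-0.22, adjusted p 0.1005).

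The difference in *Tet2* was largest at day 11, where WT had 21.9 and 23.0 RPKM and KO 12.96 and 13.7. WT was 1.68-fold KO (log2 difference -0.75, SE 0.0687, limma adjusted p 2.04e-08; 12.3% of genes called lower). At day 17 WT had 14.3 and 15.6 RPKM and KO 10.99 and 11.8 (-0.39, adjusted p 8.72e-05). At day 25 WT had 12.4 and 12.3 RPKM and KO 13.5 and 13.7, so that KO lay slightly above WT without overlap, and the difference of 0.14 did not pass (95% interval -0.004 to 0.28, adjusted p 0.0808). Between the libraries labelled KO and WT at day 6 the difference was -0.10 (adjusted p 0.303).

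Over days 3 to 25 the log2 difference of *Tet2* was -0.28 (SE 0.02805, limma adjusted p 3.73e-08), and it was -0.31 without day 6 (adjusted p 1.23e-08). The difference at day 25 lay above that at day 9 by 0.37 (SE 0.0972, adjusted p 0.00345; 26.7% of genes called higher in this contrast), where *Tet1* gave -0.77. Without the term for the third day 1 pair no *Tet2* call remained (limma adjusted p 0.806 at day 11, where the SE rose from 0.0687 to 0.668).

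*Tet3* was low throughout and differed at day 25. There WT had 1.38 and 1.31 RPKM and KO 0.30 and 0.244, from 459, 393, 99 and 83 reads, and WT was 4.93-fold KO. On the log2 scale KO minus WT was -1.96 (SE 0.302, limma adjusted p 9.03e-06), with an adjusted p of 0.00193 without the term for the third day 1 pair. *Tet3* passed the filter on low values only through these 2 WT libraries and so had to differ at this day. In the main fit 25.9% of tested genes were called lower. With no filter the limma adjusted p was 2.81e-05, and 9988 genes were called in that fit. That value comes from the same libraries and is no separate support. With a pseudocount of 1 in place of 0.1 the difference was -0.88, since the added value outweighs a level this low.

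At day 11 *Tet3* had 0.230 and 0.323 RPKM in WT and 0.232 and 0.941 in KO. The high value belongs to replicate 2 of KO, which also had the higher *Tet1* level, and the difference of 0.65 did not pass (adjusted p 0.0983). It was 1.48 without replicate 1 of KO (adjusted p 1.005e-05) and -0.17 without replicate 2, so 1 library decided its direction. At days 0, 1, 3, 9 and 17 the differences lay between -0.07 and 0.24 and did not pass; at day 6, as labelled, it was -0.39 (adjusted p 0.365). The mean over days 3 to 25 was -0.18 (adjusted p 0.225), and -0.14 without day 6 (adjusted p 0.377). Without replicate 2 of KO at day 11 these means were -0.32 and -0.31. Each of these means includes the day 25 difference of -1.96, the largest of the days averaged. They thus rest in part on the WT libraries that let *Tet3* pass the filter. The difference at day 25 minus that at day 9 was -2.07 (SE 0.4275, adjusted p 0.000530), which rests on the same WT libraries of day 25 that let *Tet3* pass the filter.

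*Tdg* differed little between genotypes. No single day passed, and the differences lay between -0.16 at day 17 and 0.08 at day 6 as labelled. At day 17 WT had 12.2 and 12.4 RPKM and KO 11.05 and 10.9, which do not overlap (95% interval of the log2 difference -0.33 to 0.005, adjusted p 0.115). At day 25 WT had 11.8 and 12.2 RPKM and KO 12.7 and 10.8, and the KO libraries spanned both WT values (-0.03, 95% interval -0.20 to 0.13). The mean over days 3 to 25 was -0.06 (adjusted p 0.125) and passed only without day 6, at -0.09 (SE 0.0358, adjusted p 0.0351).

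That *Tdg* call was lost without any of 10 of 20 single libraries. After each library was centred on its median, *Tdg* was lower at days 11 (-0.22, adjusted p 0.0207) and 17 (-0.35, adjusted p 0.000661). NCBIM37 holds 4 copies of *Tdg* transcript sequence without introns, on chromosomes 7, 10, 15 and 19, with identities of 99.3%, 96.0%, 98.6% and 99.6% over between 1254 and 3026 aligned bases. Reads that match a copy and the gene equally well get a low mapping quality and would have been discarded, so the *Tdg* values are uncertain; for the *Tet* genes no copy of at least 500 bases and 85% identity was found.

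**Figure D2:**
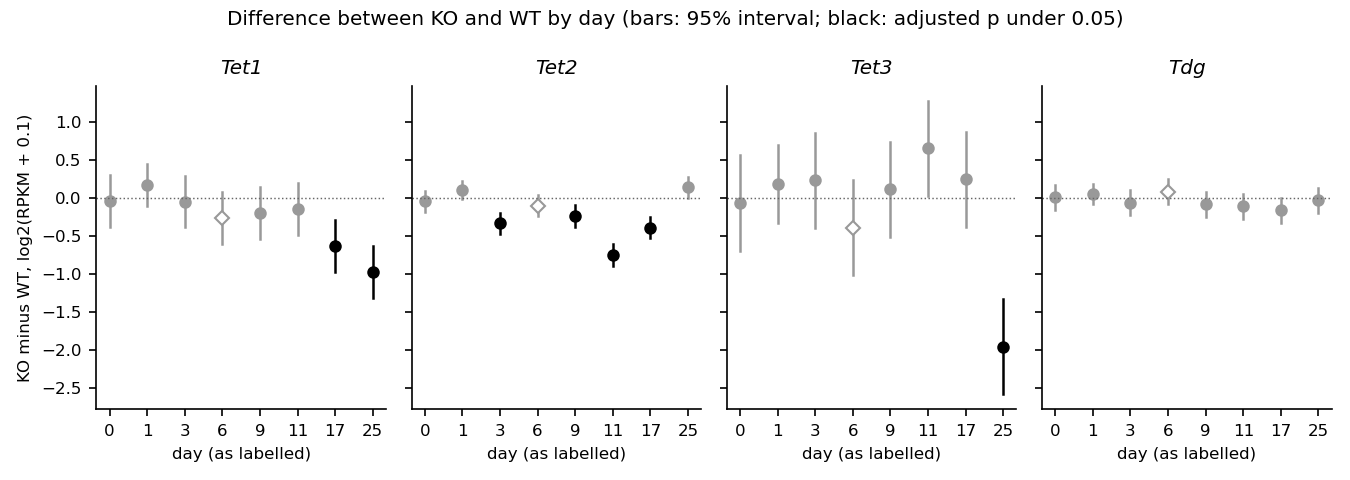
KO minus WT of each member at each labelled day on the log2(RPKM + 0.1) scale with its 95% interval; black points passed the test, grey ones did not, and the open diamond is day 6 as labelled. *Tet1* reaches -0.97 at day 25 and *Tet2* -0.75 at day 11, *Tet3* departs from 0 at day 25, and *Tdg* stays between -0.16 and 0.08.

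At day 0 none of the members was called, as none of all tested genes was (0%, with 242 of 11615 at an unadjusted limma p below 0.05), and their differences lay between -0.07 and 0.01. At day 1 no member was called either (0.146% of genes called). In the third day 1 pair, which is high-share, *Tet1* had 43.3 RPKM in WT and 57.3 in KO, and *Tet2* 22.05 and 23.4. In replicates 1 and 2 *Tet1* had 6.59 and 6.78 RPKM in WT and 7.48 and 6.47 in KO. The third libraries thus exceeded their partners by 2.68 (WT) and 3.02 (KO) on the log2 scale for *Tet1* and by 2.66 and 2.63 for *Tet2*, where the medians of all tested genes were 1.005 and 1.007. These offsets lay above those of at least 98.6% of tested genes, whereas *Tet3* (1.05 and 1.3) and *Tdg* (1.32 and 1.56) lay nearer the median.

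The members also changed with time in culture within a genotype. From day 11 to day 25 *Tet1* rose in WT by 0.51 (SE 0.164, limma adjusted p 0.00833; 34.7% of genes called higher) and in KO gave -0.31 (adjusted p 0.120). *Tet3* gave 1.95 in WT (adjusted p 6.60e-06), a direction that its passing the filter only through WT at day 25 had fixed, and -0.66 in KO (adjusted p 0.0690). *Tet2* fell in WT by 0.86 (adjusted p 4.44e-10; 33.2% of genes called lower) and in KO gave 0.03 (adjusted p 0.770). The KO libraries of *Tet2* held between 10.99 and 13.7 RPKM from day 11 to day 25. *Tdg* rose in WT by 0.29 (adjusted p 0.00290) and in KO by 0.37 (adjusted p 0.000563; 28.0% of genes called higher). From day 0 to day 9 no member was called, with 7.75% of genes called higher and 7.26% lower in WT and 30.8% called in KO; *Tet1* gave 0.41 in WT (adjusted p 0.0964). The rise of *Tet1* in WT was lost without replicate 1 of day 11 (0.38, adjusted p 0.108) or of day 25 (0.47, adjusted p 0.0527), and the KO change of *Tet3* was 0.16 without replicate 2 of day 11. Without the term for the third day 1 pair, none of these changes of *Tet1*, *Tet2* and *Tdg* passed.

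Within the summed RPKM of the *Tet* genes, *Tet1* made up between 56.75% and 80.3% of the 35 libraries' totals, *Tet2* between 17.8% and 42.1%, and *Tet3* between 0.406% and 2.71%. At day 11 the sum was 60.9 ± 5.94 RPKM in WT and 49.1 ± 12.5 in KO (SD, n = 2), and at day 25 it was 68.0 ± 2.46 in WT and 41.5 ± 0.224 in KO (SD, n = 2). *Tet1* took 79.9% ± 0.543 of it in WT at day 25 and 66.6% ± 0.450 in KO (SD, n = 2), while *Tet2* took 18.1% ± 0.546 and 32.7% ± 0.542. At day 11 the balance ran the other way, with *Tet2* at 37.01% ± 2.34 in WT and 27.9% ± 6.02 in KO (SD, n = 2). These shares are a description and were not tested.

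**Figure D3:**
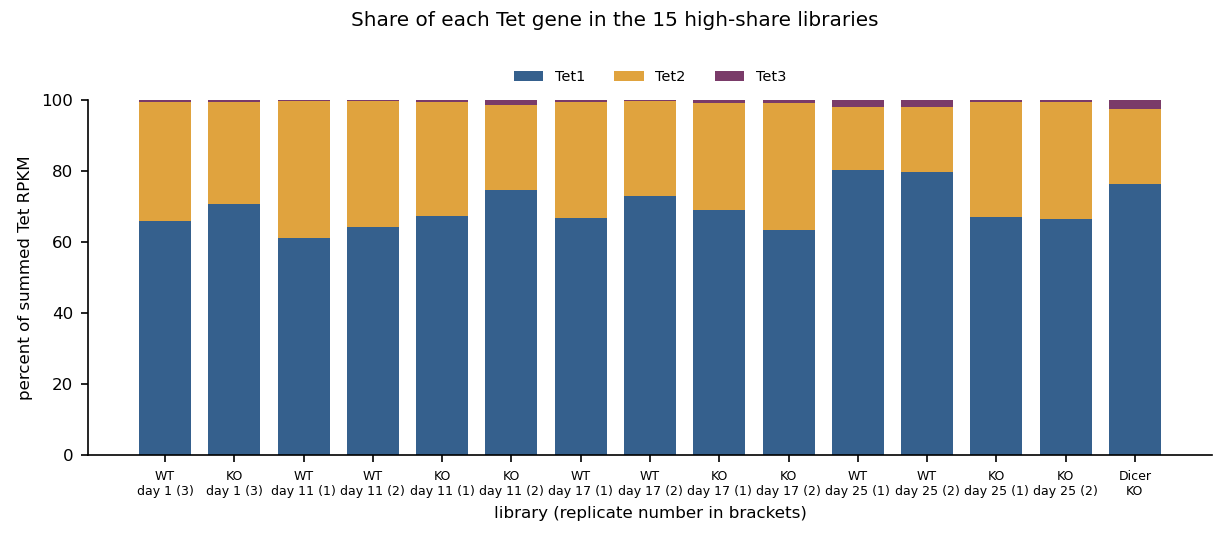
Percent of the summed *Tet* RPKM taken by each *Tet* gene (stacked bars) in each of the 15 high-share libraries. *Tet1* takes a mean of 79.9% in WT at day 25 and 66.6% in KO, and *Tet3* is a thin band, widest in *Dicer* KO (2.71%).

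The *Dicer* KO library was set beside the 7 high-share WT libraries, without a test, since it has no replicate. *Tet1* had 25.4 RPKM in it, below the WT range of 29.2 to 55.95, and *Tet2* 6.96, below the range of 12.3 to 23.0 and 0.446 of its median. *Tdg* had 7.79 RPKM, below the range of 9.495 to 12.4. *Tet3* had 0.903 RPKM, within the range of 0.230 to 1.38 but above all WT libraries other than those of day 25. Lying below all 7 was common, at 26.9% of tested genes. On the log2 scale the distance from the mean of the 7 was -1.26 for *Tet2*, with 5.7% of tested genes further down, -0.72 for *Tet1* (16.2%), -0.54 for *Tdg* (22.4%) and 0.81 for *Tet3*. *Dnmt1* had 34.8 RPKM and *Dicer1* 4.01 RPKM in this library, the latter inside the WT range of 3.905 to 8.57. Its summed fibroblast marker level was 314 RPKM against 11.7 to 43.0 in the other high-share libraries, led by *Acta2* at 117.7 RPKM; its part in these values was not tested.

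Marker genes of other cells moved with some of these comparisons. The 10 fibroblast (feeder) markers summed to more in KO on 3 of the days at which *Tet2* was lower. At day 3 the sum was between 33.79 and 33.96 RPKM in WT and between 51.4 and 52.2 in KO, and at day 9 it was between 34.3 and 34.9 in WT and between 49.4 and 54.2 in KO. At day 17, where *Tet1* was lower too, it was between 15.3 and 18.75 RPKM in WT and between 41.9 and 43.04 in KO, with *Acta2* at 0.303 ± 0.135 and 11.09 ± 0.0568 (SD, n = 2). The markers did not move as 1 at day 17, where 4671 of all 11615 tested genes were called (11.4% called lower). Of 7 markers tested, 2 were higher, 1 was lower and 4 were not called. The lower one was *Fn1* (-0.79, limma adjusted p 0.0440), and *Col3a1* and *Lum* were at or below 3 reads in both genotypes. At day 11, where *Tet2* differed most, the groups overlapped, at 17.99 to 25.6 RPKM in WT and 11.65 to 24.2 in KO, and *Col1a2*, *Col3a1*, *Postn*, *Lum* and *Dcn* were at or below 3 reads. At day 25, where *Tet1* and *Tet3* differed, the sum was between 34.2 and 36.6 RPKM in WT and between 11.7 and 13.8 in KO, with *Postn*, *Lum* and *Dcn* at or below 3 reads in all 4 libraries. *Fn1*, one of the genes most like *Tet1*, made up most of that gap, and without it the sums were between 9.24 and 9.92 RPKM in WT and between 5.785 and 6.48 in KO. Of the 7 fibroblast markers tested at day 25, 1 was higher, 3 were lower and 3 were not called. Among all tested genes 39.4% were called higher at day 25 and 25.9% lower.

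The 5 trophoblast markers summed to between 2.49 and 2.885 RPKM in WT and between 10.3 and 10.7 in KO at day 17, the highest of any library. At day 11 they summed to between 4.035 and 4.44 RPKM in WT and between 6.68 and 10.1 in KO. The 4 formative epiblast markers summed to between 14.3 and 14.9 RPKM in WT and between 31.2 and 31.3 in KO at day 9, to between 13.9 and 14.7 in WT and between 20.06 and 20.1 in KO at day 11, and to 98.97 in *Dicer* KO. At day 17 their sum was between 22.85 and 22.94 RPKM in WT and between 19.6 and 20.43 in KO. They did not move together. Of the 3 tested, 1 was higher and 1 lower in KO at days 9 and 11 (median differences -0.04 and -0.31). At day 17, 1 was higher and 2 were lower (median -1.37). Of all 11615 tested genes, 3160 were called at day 9, 4066 at day 11 and 4671 at day 17. The 6 primitive endoderm markers summed to at most 6.35 RPKM in any library, and the 4 mesoderm and neuroectoderm markers in the table to at most 8.01. At day 9, where *Tet2* was lower, the primitive endoderm sum was between 2.04 and 2.22 RPKM in WT and between 4.59 and 4.65 in KO. All 3 tested primitive endoderm markers were higher in KO at day 9 (median difference 0.96). At day 25, 2 of the 3 were lower (median -0.39), beside 25.9% of all tested genes. At day 25, KO had 5 of the 10 ESC markers higher and 2 lower, beside 39.4% and 25.9% of all tested genes. The ESC markers summed to between 763.5 and 774.5 RPKM in WT and between 951 and 954 in KO. *Nanog*, at 31.7 ± 1.45 RPKM in WT and 149.5 ± 7.36 in KO (SD, n = 2), made up most of that gap, whereas *Utf1* had 37.9 ± 2.6 in WT and 19.2 ± 0.537 in KO (SD, n = 2). The part of these markers in the members' differences was not tested, and in bulk samples fewer cells of a type and less RNA per cell cannot be told apart.

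The genes most like each member were sought by Pearson r of log2(RPKM + 0.1) over the 34 WT and *Dnmt1* KO libraries, after the mean of each day was subtracted. These points share a day's mean and include libraries that stand apart, so r is a description. For *Tet1* they were *Cecr2* (r 0.96), *Pou2f1* (0.95) and *Fn1* (0.94), and for *Tet3* *Polr2a*, *Crebbp* and *Nup214* (0.97 each). For *Tet2* they were *Csrnp3* (0.87), *Phyh* (0.85) and *Cryzl1* (0.84), and for *Tdg* *Slc9a5* (0.73), *Mpdz* (0.72) and *Pck2* (0.72). A pattern like that of *Tet3* was widespread, with 7.34% of tested genes above an r of 0.8, against 3.02% for *Tet1*, 0.11% for *Tet2* and 0% for *Tdg*. *Polr2a*, the largest subunit of RNA polymerase II, had 43.0 and 40.1 RPKM in WT at day 25 and 8.60 and 6.145 in KO, and it too was high in replicate 2 of KO at day 11 (14.3 against 3.72 RPKM in replicate 1). Among the members, *Tet1* and *Tet3* had an r of 0.71, *Tet2* and *Tdg* 0.45, and *Tet2* and *Tet3* -0.33.

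**Figure D4:**
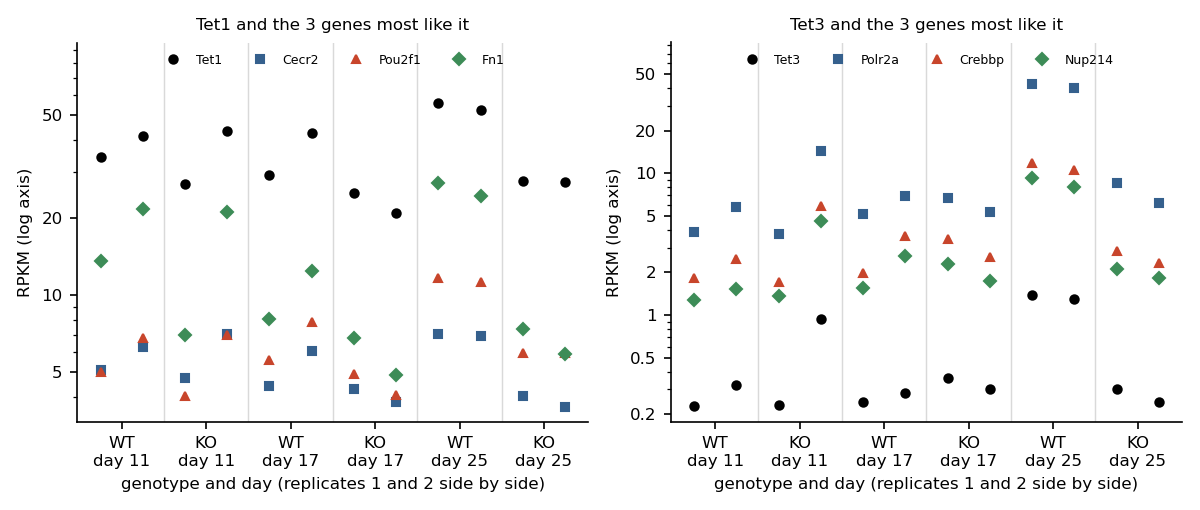
RPKM (log axis) of *Tet1* (left) and *Tet3* (right) and of the 3 genes most like each, in the 12 libraries of days 11, 17 and 25, with replicates 1 and 2 side by side. All 8 genes are higher in both WT libraries of day 25 than in both KO libraries of that day, and all 8 are higher in replicate 2 than in replicate 1 of KO at day 11 (*Tet1* 43.3 and 27.1 RPKM, *Tet3* 0.941 and 0.232). The companion genes were chosen by r over libraries that include these 12, so their likeness here follows largely from that choice.

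The steps around the TET reaction were read from 3 lists of genes. The 18 BER genes comprise other glycosylases and genes that act after a glycosylase such as TDG, and 17 were tested. At day 25, 9 were higher and 2 lower in KO (39.4% and 25.9% of all tested genes). The median difference was 0.22 against 0.13 for all genes. *Parp1*, which senses strand breaks, was higher in KO than in WT by 0.65 (limma adjusted p 5.05e-09), and *Polb*, the polymerase that fills the gap, by 0.66 (adjusted p 6.08e-06). *Apex2*, an AP endonuclease, was lower (-1.05, adjusted p 4.62e-05), as was *Mbd4* (-0.25, adjusted p 0.0201), the other glycosylase known to act on thymine opposite guanine. Over days 3 to 25 without day 6 the counts were 5 higher and 7 lower (37.4% and 20.4% of all genes), with a median of 0.05 against 0.06. *Ung* (0.24), *Fen1* (0.26), *Lig1* (0.15), *Xrcc1* (0.11) and *Parp1* (0.08) were higher, and those lower included *Neil2* (-0.28), *Apex2* (-0.28), *Neil1* (-0.26), *Parp2* (-0.21), *Polb* (-0.17) and *Mbd4* (-0.13). *Polb*, *Parp2* and *Neil2* changed sign between days: at day 9 they were -0.38, -0.42 and -1.10, and at day 25 0.66, 0.39 and 0.50. For each of them the difference between the days passed the test (adjusted p 5.61e-06, 2.33e-05 and 1.18e-07).

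Of 12 partners and regulators of TET proteins, 11 were tested, and at day 25 5 were higher and 3 lower in KO, beside 39.4% and 25.9% of all tested genes (median 0.07 against 0.13 for all genes). *Nanog*, a pluripotency factor that binds TET1 and TET2, was higher in KO than in WT by 2.23 (limma adjusted p 1.28e-12). Its mean level was 159 RPKM in WT and 195.3 in KO at day 11, and 31.7 and 149.5 at day 25. *Prdm14*, which favours the demethylated naive state, was higher in KO by 1.98 (adjusted p 2.61e-10). Its mean level was 2.54 RPKM in WT and 3.16 in KO at day 11, and 0.591 and 2.62 at day 25. *Hcfc1*, a partner of the sugar transferase OGT, was lower in KO at day 25 (-1.75, adjusted p 3.25e-06). Over days 3 to 25 without day 6, 5 were higher (*Nanog* 0.81, *Prdm14* 0.79, *Dppa3* 0.43, *Cxxc5* 0.14 and *Rad23b* 0.10) and 2 lower (*Hcfc1* -0.38 and *Sin3a* -0.25), beside 37.4% and 20.4% of all tested genes, with a median of -0.03 against 0.06.

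TET enzymes consume 2-oxoglutarate, and all 14 genes of its supply and use were tested. At day 25, 6 were higher and 4 lower in KO, beside 39.4% and 25.9% of all tested genes (median 0.14 against 0.13 for all genes). *Idh1*, the cytosolic isocitrate dehydrogenase that makes 2-oxoglutarate, had 11.21 ± 1.19 RPKM in WT and 45.7 ± 2.16 in KO (SD, n = 2), and its log2 difference of 2.02 passed (limma adjusted p 1.28e-12). *Sdha*, a subunit of succinate dehydrogenase, was lower (-1.28, adjusted p 9.35e-07), and so was *Ogdh*, which uses up 2-oxoglutarate (-1.20, adjusted p 7.53e-05). Over days 3 to 25 without day 6, 4 were higher (among them *Idh1* 0.68 and *Idh2* 0.34) and 5 lower (*Sdha* -0.35, *Glud1* -0.23, *Sdhb* -0.21, *Idh3a* -0.15 and *Idh3g* -0.14), beside 37.4% and 20.4% of all tested genes, with a median of -0.03 against 0.06. In each of the 3 lists higher and lower calls stood side by side, and no list was tested as a set.

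**Figure D5:**
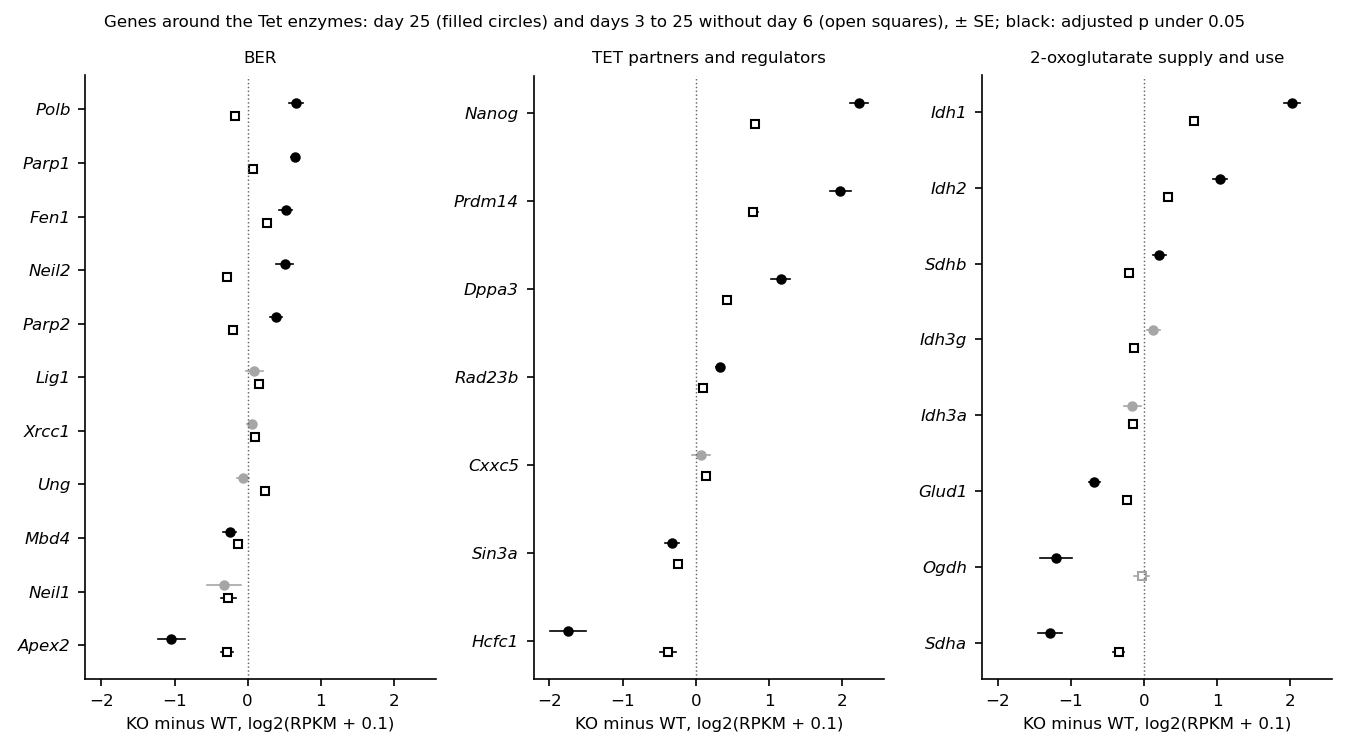
KO minus WT on the log2(RPKM + 0.1) scale, ± SE, for the genes of the 3 lists that the text names, at day 25 (filled circles) and over days 3 to 25 without day 6 (open squares); black passed the test and grey did not. *Nanog* (2.23), *Idh1* (2.02) and *Prdm14* (1.98) lie furthest to the right and *Hcfc1* (-1.75) furthest to the left at day 25.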

How the data were processed

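The data are 35 libraries of mouse ESC total RNA without ribosomal RNA. Per the submitters' processing notes and the study's methods, the authors trimmed reads with Trim Galore 0.3.5, aligned them with TopHat2 2.0.11 to NCBIM37, discarded reads with a mapping quality below 20 and quantified genes in SeqMonk. The methods name log2 RPM, but the deposited table holds RPKM on a linear scale with 1 column per library and no scaling between libraries, so limma was used on log2(RPKM + 0.1), as had been planned. Fold changes on that scale understate the change of low genes.

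Reads were recovered from RPKM steps and exon lengths (GENCODE vM1, 99.85% of rows matched): at least 99.51% of values below 20 reads were whole within 0.1 in each library. The floor of 3 reads covers counting error only, and the intervals of differences come from the spread between libraries. The filter on low values kept 11615 genes, those that exceeded an RPKM of 1 in 2 or more of the 34 libraries other than *Dicer* KO. Group means and a term for the third day 1 pair were fitted over these 34 libraries with limma 3.58.1 (lmFit, eBayes with a trend) in R 4.3.3, and a Benjamini-Hochberg adjusted p below 0.05 over all tested genes was a call. The functions were tested on simulated data. No replicate pair of one set differed by less than sampling noise (smallest ratio of chi-square to its degrees of freedom 1.396).

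The members and the 3 pathway and 6 marker lists were chosen with earlier results of these data known. Genes named from the pathway lists are those called over days 3 to 25 without day 6 and the 3 largest called differences of each list at day 25; others are named as values asked for them, and some list genes, although counted, are not reported here by name. Older symbols were matched through RefSeq synonyms. Copies of the members were sought with minimap2 2.31-r1302. Promoter windows came from RefSeq (GRCm38.p6). Alternatives were the pseudocount, the filter, median centring, the third day 1 pair, the samples fitted, a replicate block, voom on recovered reads and single libraries left out. Fits within one gene-read share and without a variance trend were added after the data were seen. Tables and plots were made in Python 3.11.15 (pandas 2.3.3, numpy 2.4.6, matplotlib 3.10.9, scipy 1.17.1).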

Additional observations from a re-analysis of the deposited data

Results flagged for a closer look

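The difference between KO and WT was not the same at day 25 as at day 9 for *Tet1* and *Tet2*, by the test of that difference itself. It was -0.77 for *Tet1* (from -0.20 at day 9 to -0.97 at day 25, limma adjusted p 0.00898) and 0.37 for *Tet2* (from -0.23 to 0.14, adjusted p 0.00345). For *Tet3* it was -2.07 (from 0.11 to -1.96, adjusted p 0.000530), but *Tet3* passed the filter on low values only through WT at day 25, so its direction was fixed by that choice. In this contrast 48.2% of all tested genes were called. Day 9 libraries are low-share and day 25 libraries high-share, so the effects of day and of library set cannot be told apart. No group had enough libraries for a test of outliers.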

How the results depend on the processing

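With no term for the third day 1 pair every member call was lost except those of *Tet3* at day 25, for day 25 minus day 9 and in WT from day 11 to 25, all of which include the WT day 25 libraries that let it pass the filter. The values did not move (*Tet1* -0.63 at day 17, -0.97 at day 25, -0.38 and -0.40 for the means with and without day 6, -0.77 for day 25 minus day 9 and 0.51 for WT from day 11 to 25; *Tet2* -0.33, -0.23, -0.75 and -0.39 at days 3, 9, 11 and 17, -0.28, -0.31, 0.37 and -0.86 in the same order; *Tdg* -0.09, 0.29 in WT and 0.37 in KO), and adjusted p lay between 0.377 and 1. Fitting only the groups compared called *Tet1* at day 6 (-0.26), at day 9 (-0.20) and from day 0 to 9 in WT (0.41) and KO (0.26), and lost *Tdg* without day 6 (-0.09) and in KO from day 11 to 25 (0.37). Fitting libraries of one gene-read share made the same 4 *Tet1* calls (-0.26, -0.20, 0.41, 0.26), lost *Tet1* at day 17 (-0.63) and in WT from day 11 to 25 (0.51), and gave *Tdg* -0.028 at day 1, as did leaving out the third pair (-0.028). Median centring called *Tdg* at days 11 (-0.22) and 17 (-0.35) and over days 3 to 25 (-0.11) and *Tet2* in KO from day 0 to 9 (-0.21), and gave *Tet3* -0.0055 in WT from day 0 to 9; a pseudocount of 1 called *Tet3* in KO from day 11 to 25 (-0.28). *Tdg* passed only without day 6 (-0.09). The other alternatives changed no call of a member: pseudocount 0.01, no filter, no variance trend, voom and, with the exception of *Tdg*, the replicate block.

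Replicate numbers did not pair the samples (correlation of same-numbered deviations between -0.16 and 0.26 over the 8 days); with the replicate block *Tdg* without day 6 was -0.09 (adjusted p 0.0527) and no other member call changed. Leaving out 1 library gave, for *Tet1*, between -0.099 and 0.012 at day 0, -0.11 and 0.016 at day 3, -0.49 and 0.19 at day 11, -0.90 and -0.36 at day 17, 0.38 and 0.65 in WT and -0.65 and 0.03 in KO from day 11 to 25. For *Tet2* it gave between -0.12 and 0.033 at day 0, -0.29 and -0.18 at day 9, -0.008 and 0.15 in WT from day 0 to 9, and -0.015 and 0.067 in KO from day 11 to 25. For *Tet3* it gave between -0.17 and 1.48 at day 11, -0.32 and -0.048 over days 3 to 25, -0.31 and 0.022 without day 6, and -1.49 and 0.16 in KO from day 11 to 25, the extremes with replicates 1 and 2 of KO at day 11 left out. For *Tdg* it gave between -0.0076 and 0.028 at day 0, -0.028 and 0.11 at day 1, -0.18 and 0.009 at day 9, -0.15 and 0.085 at day 25, -0.081 and -0.042 over days 3 to 25, -0.11 and -0.067 without day 6, -0.068 and 0.17 for day 25 minus day 9, and -0.0091 and 0.18 in WT from day 0 to 9. Against all 17 WT libraries *Dicer* KO gave 0.65 for *Tet1*, -0.20 for *Tet2* and 0.23 for *Tdg*, a comparison that crosses the gene-read shares, and -0.77 for *Tdg* with median centring. Counts of all genes called varied over the alternatives other than single libraries left out, some of which fitted only part of the libraries. They ranged from 77 to 2680 at day 3 (1301 in the main fit) and from 382 to 4914 at day 9 (3160). At day 11 they ranged from 311 to 5581 (4066), at day 17 from 1204 to 6593 (4671) and at day 25 from 2430 to 9988 (7591).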

Other observations

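*Sall4*, a pluripotency factor that binds oxidised methylcytosine and belongs to the list of TET partners, was not among the genes named by the rule and was chosen after its values were seen. At day 25 its mean level was 37.3 ± 2.26 RPKM in the WT group and 12.6 ± 1.94 in the KO group (SD, n = 2). KO minus WT was -1.56 on the log2 scale (limma adjusted p 1.59e-05), and the *Dicer* KO library held 8.29 RPKM. Over days 3 to 25 without day 6 its difference was -0.22 (adjusted p 0.102). *Dppa3*, a maternal factor known to shield methylated DNA from TET3, had a mean of 9.46 ± 1.35 RPKM in WT and 21.2 ± 0.176 in KO at day 25 (SD, n = 2), and 0.0435 RPKM in the *Dicer* KO library.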
